A study of Sus scrofa with 20 samples.

Results

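The respiratory chain genes described here are the 72 rows of the counts table whose pig gene symbol names a nuclear-encoded subunit, or a closely named factor, of mitochondrial complexes I to V. They were taken by symbol from 25880 gene rows, of which 14857 had a symbol. The set holds 28 subunit genes of complex I, 7 of its assembly factors, all 4 genes of complex II, 7 of complex III, 15 of complex IV, 10 of complex V and 1 inhibitor of complex V. A further 9 symbols that meet the same rule, among them NDUFA1, COX6C and UQCRB, were not analysed here, and mitochondrially encoded genes are not members.

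The respiratory chain sits in the inner mitochondrial membrane. Complexes I and II pass electrons from NADH and succinate to ubiquinone, complex III passes them to cytochrome c, and complex IV passes them to oxygen. Complexes I, III and IV pump protons, and complex V, the ATP synthase, uses the resulting gradient to make ATP. Neurons draw heavily on this chain, and its subunits are encoded partly in the nucleus and partly in mitochondrial DNA, except for those of complex II, which are all nuclear.

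Messenger RNA was sequenced from the hypothalamus of 20 pigs aged 2 months, 1 library per animal. The 4 groups of 5 were Iberian females, Iberian males, crossbred females and crossbred males, where crossbred means Iberian x Large White. No treatment or engineered allele is named for any group. The series compared breeds and sexes, and each difference below is crossbred minus Iberian or male minus female.

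Counts assigned to genes came to 1430138 to 2384615 per library, which is 4.04 to 4.62% of all entries counted. Of the 14 hypothalamic markers checked, 12 had a row and none was at 0 throughout, with AVP at 5 to 55, HCRT at 3 to 32 and OTP at 3 to 18 counts per library. These 3 were the best counted at their lowest, and 6 of the 12 had a median of 2 counts or fewer, CRH and SIM1 with medians of 0 among them. Iberian male replicate 5 stood apart from the other 19 libraries on the first principal component, at 63.95 against -9.40 to 1.19. Of 8 anterior pituitary markers 5 had a row, and their sum was 286 CPM (counts scaled to a common library size of 1e6) in that library against 0 to 3.75 CPM in the others, with PRL, CGA and FSHB at 157, 163 and 111 counts. Alignments of low quality made up 5.33 to 5.92% of entries in 7 libraries, namely Iberian males 2 and 3 and every Iberian female, and 2.73 to 3.88% in the other 13. ND6 led the 13 mitochondrial messengers in counts in 20 of 20 libraries, at 19.8 to 141 times those of COX1. ND6 is the only one of the 13 copied from the opposite strand. Whether counts of any gene named below came from its own messenger or from the opposite strand is therefore uncertain, and a symbol here means only the gene row that received the counts.

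The counts of the 72 genes were spread very unevenly. Together they took 1.58% of all gene counts, and NDUFB10, an accessory subunit in the membrane arm of complex I, alone held 68.4% of that amount. COX7A1, the heart and muscle isoform of a complex IV subunit, held 16%. With NDUFS1 and NDUFS3, core subunits of complex I, these 4 genes held 92.6%. At the other end 41 of the 72 genes had a median under 10 counts per library. COX6B2, the testis isoform of a complex IV subunit, had 0 counts in all 20 libraries. No transcript lengths were at hand, so counts of different genes are given as counts and not compared as expression.

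**Figure D1:**
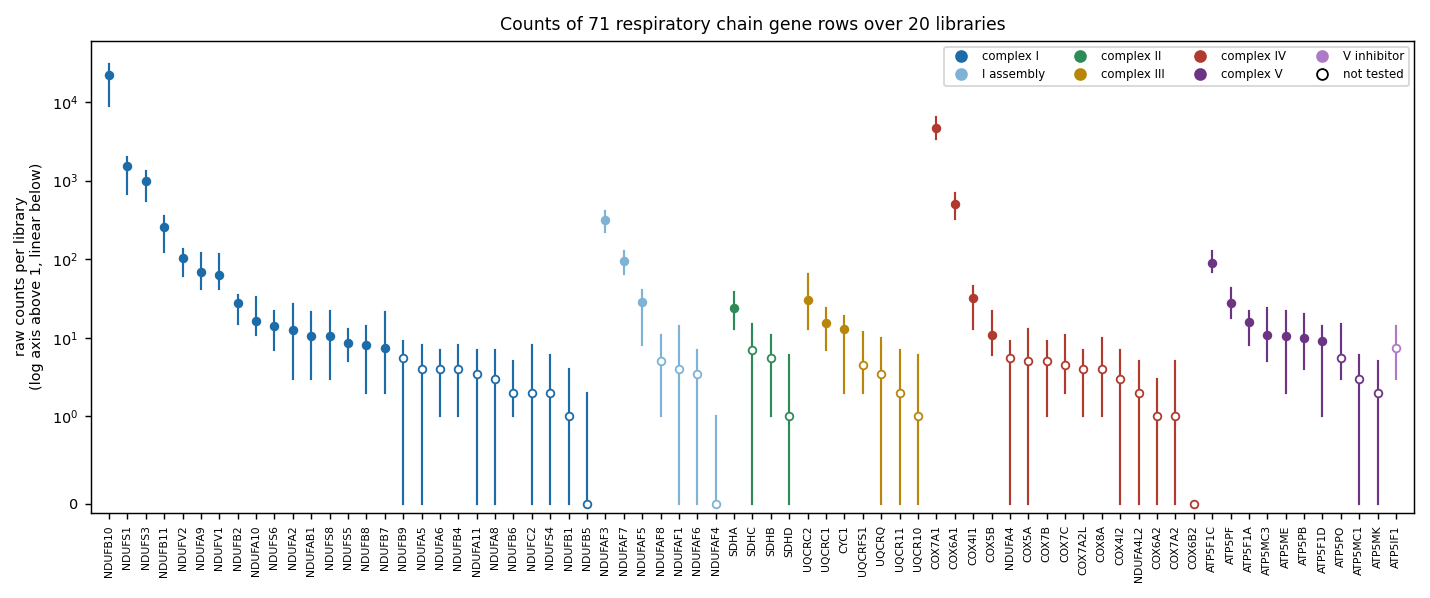
Raw counts per library (vertical axis, log above 1) of 71 of the genes grouped by complex (horizontal axis); points are medians of 20 libraries, lines run from the lowest to the highest library, and open points mark genes below the filter. NDUFB10 at a median of 22105 and COX7A1 at 4706 lie far above the other genes of complexes I and IV, while every gene of complexes II and III has a median of 30 or less.

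In complex I core subunits were among the better counted genes, with the exception of NDUFS8. NDUFS1, an iron-sulfur protein, had 670 to 1989 counts per library, and NDUFS3 had 556 to 1327. NDUFV2 and NDUFV1, of the NADH-oxidising tip, had 61 to 135 and 42 to 117 counts, and NDUFS8 only 3 to 22. Among accessory subunits NDUFB10 had 8992 to 29952 counts and the X-linked NDUFB11 had 122 to 359, while NDUFB5 had at most 2. Of the assembly factors, NDUFAF3 had 220 to 414 counts, NDUFAF7, a methyltransferase, had 64 to 126, and NDUFAF4 at most 1.

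Complex II was thinly counted throughout. SDHA, its flavoprotein, had 13 to 38 counts per library, SDHB, its iron-sulfur protein, 1 to 11, and the membrane anchors SDHC and SDHD 0 to 15 and 0 to 6. In complex III the core proteins UQCRC2 and UQCRC1 had 13 to 65 and 7 to 24 counts, cytochrome c1 (CYC1) had 2 to 19 and the Rieske protein UQCRFS1 had 2 to 12. In complex V the gamma subunit ATP5F1C had the most, at 68 to 128 counts, followed by ATP5PF of the stalk at 18 to 43. The alpha subunit ATP5F1A had 8 to 22, and the inhibitor ATP5IF1 had 3 to 14.

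Several complex IV subunits exist as paired isoforms, a widely expressed form and one restricted to heart, muscle, lung or other tissues in mammals. COX7A1, the heart and muscle form, had 3360 to 6380 counts per library, and COX7A2, the widely expressed form, had 0 to 5. For the other pairs the order was the opposite. COX6A1, the widely expressed form, had 328 to 701 counts and its muscle partner COX6A2 had 0 to 3, and COX4I1 had 13 to 45 against 0 to 7 for COX4I2, a form known from lung and hypoxia. NDUFA4, which is part of complex IV despite its name, had 0 to 9 counts and its paralogue NDUFA4L2 had 0 to 5. COX8A had 1 to 10 and COX7B 1 to 9, and COX6B1 and COX8C were not analysed here. Of 4 skeletal muscle markers 2 had a row, with ACTA1 at 2 to 17 and CKM at 481 to 1530 counts. Paired isoforms are similar in sequence. Entries aligned to more than 1 place had a summary line of their own, at 3.89 to 9.50% of entries per library. No source used here says whether such reads were also counted for a gene, so the counts of paired isoforms are uncertain.

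Most of the highest counts fell on genes that lie beside another gene. Of the 46 genes with a position in the RefSeq annotation of Sscrofa11.1, 12 had a median of at least 50 counts, and 10 of these 12 (83.3%) had another protein-coding gene overlapping them or within 1 kb. The share was 3 of 9 (33.3%) at medians of 10 to under 50, 14 of 25 (56%) below 10, and 40.8% over 20623 protein-coding genes of that annotation. NDUFB10 spans 40003109 to 40005650 of chromosome 3 and overlaps RPS2, a ribosomal protein gene, by 2 bp and RPL3L by 744 bp. COX7A1, at 45519225 to 45520721 of chromosome 6, has CAPNS1 614 bp and ZNF146 163 bp away. NDUFS1, at 109413726 to 109451813 of chromosome 15, lies 87 bp from EEF1B2, a translation elongation factor gene. NDUFS3 overlaps KBTBD4 by 162 bp and NDUFB11 overlaps RBM10 by 648 bp. COX6A1 and NDUFV2 had no such neighbour.

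Within these pairs the counts were often lopsided. For 29 pairs, which cover 24 respiratory chain genes, both genes had a row. In 17 of the pairs the medians differed by at least 10-fold, 9 with more counts on the respiratory chain gene and 8 with more on the neighbour. The share of such gaps among neighbouring pairs of all genes was not computed, so these counts are not set apart from other genes. RPS2 had 79 to 206 counts beside 8992 to 29952 for NDUFB10, CAPNS1 had 25 to 69 beside 3360 to 6380 for COX7A1, and EEF1B2 had 2 to 20 beside 670 to 1989 for NDUFS1. In the other direction TIMM8B had 271 to 598 counts beside 0 to 6 for SDHD, and TATDN1 had 387 to 1085 beside 0 to 9 for NDUFB9. Likewise TMCO6 had 407 to 1112 beside 3 to 27 for NDUFA2, and CPSF2 had 166 to 378 beside 0 to 4 for NDUFB1. The annotation table gives no strand. Whether such pairs exchanged reads was not tested, and the counts of both partners are uncertain.

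**Figure D2:**
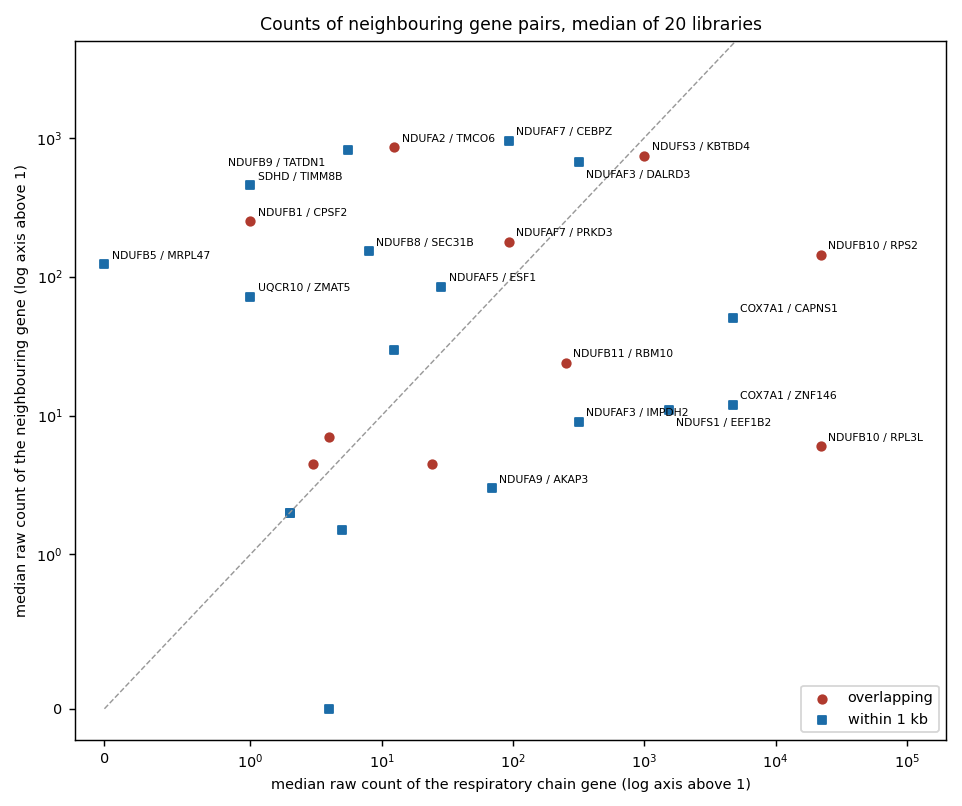
Median raw count over 20 libraries of each respiratory chain gene (horizontal axis, log above 1) against that of a protein-coding neighbour that overlaps it (circles) or lies within 1 kb (squares); the dashed line marks equal counts. Of the 28 pairs drawn, 8 lie at least 10-fold to the right of the line, NDUFB10 with RPS2 among them, and 8 at least 10-fold above it, NDUFB9 with TATDN1 among them.

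Summed over the subunits of each complex, most levels overlapped between the 4 groups. For complex I the sum was 12719 ± 2493 CPM in Iberian females, 11127 ± 1775 in Iberian males, 13343 ± 1996 in crossbred females and 13127 ± 1271 in crossbred males (SD, n = 5 each). Without NDUFB10 these sums were 1897 ± 114, 1643 ± 217, 1755 ± 116 and 1837 ± 115 CPM in the same order. For complex II the sums were 20.7 ± 4.08, 17.7 ± 2.53, 20.7 ± 2.52 and 21.1 ± 3.55 CPM in the same order of groups. All 4 ranges overlapped in each of these sets.

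For complex III the sum was 40.3 ± 8.80 CPM in Iberian females and 45.5 ± 7.78 in Iberian males, against 34.7 ± 8.17 in crossbred females and 34.8 ± 3.95 in crossbred males. Crossbred males ran from 28.4 to 38.3 and Iberian males from 37.0 to 55.8, so these groups met only at their edges. UQCRC2 alone measured 24.0 ± 5.65 CPM in Iberian males and 12.7 ± 3.11 in crossbred males, so the gap in males lay in this gene. A complex III sum without UQCRC2 was not made. For complex V the sums were 101 ± 10.8 and 111 ± 21.6 CPM in Iberian females and males and 91.4 ± 3.97 and 99.0 ± 7.85 in crossbred females and males. For complex IV they were 2809 ± 134, 3148 ± 1207, 2658 ± 211 and 2917 ± 187 CPM in that order. Among Iberian males replicate 5 was at 5281 CPM and the others at 2338 to 2845. In bulk tissue fewer cells of a type and less RNA per cell cannot be told apart.

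**Figure D3:**
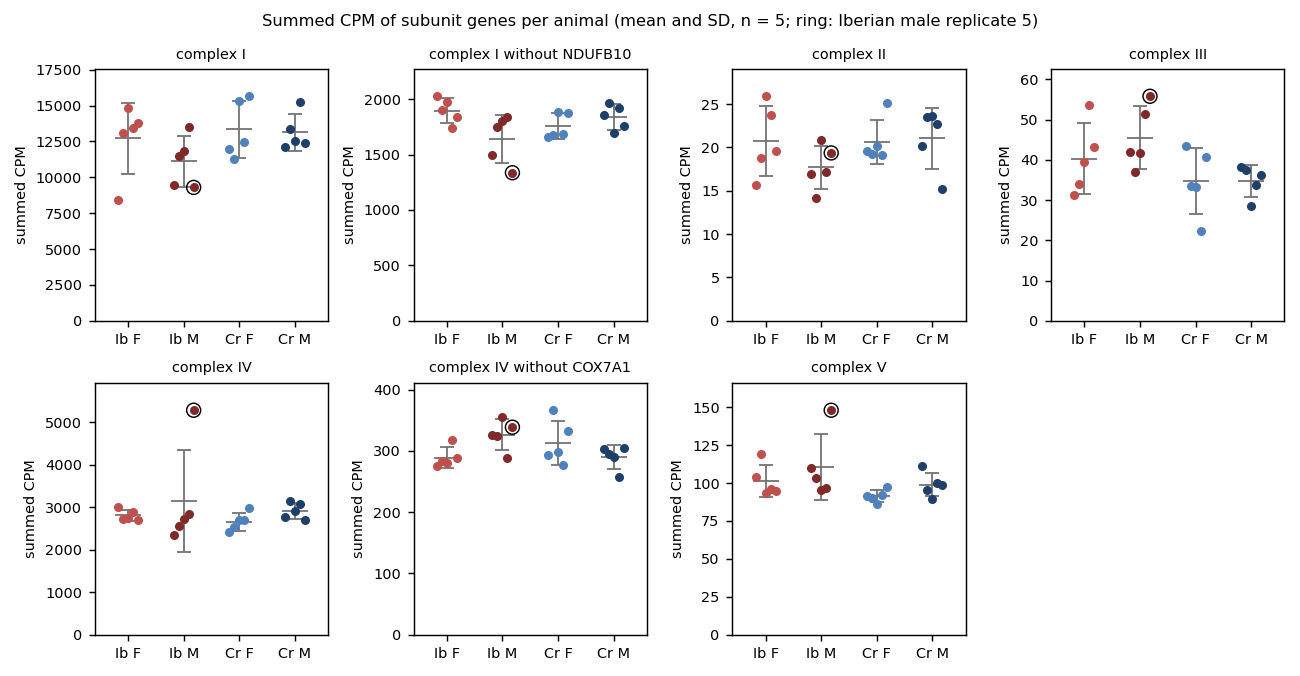
Summed CPM of the subunit genes of each complex (vertical axis) for each animal, by group (horizontal axis: Ib, Iberian; Cr, crossbred; F, female; M, male); bars are mean and SD of 5 animals and the ring marks Iberian male replicate 5. The groups overlap in most panels, and the ringed animal stands apart for complexes IV and V. Complex III is lower in crossbred males (28.4 to 38.3 CPM) than in Iberian males (37.0 to 55.8 CPM) with little overlap. That gap lies in UQCRC2, with means of 12.7 and 24.0 CPM in these groups.

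Of the 72 genes, 35 had enough counts to be tested, 17 of complex I, 3 assembly factors, 1 of complex II, 3 of complex III, 4 of complex IV and 7 of complex V. The lowest of these were NDUFB8 and NDUFS5, with totals of 149 and 174 counts over all libraries. The highest of those left out were ATP5IF1 and ATP5PO, with 151 and 138. The genes were tested with edgeR's quasi-likelihood test over all 7090 genes that passed the filter, with Benjamini-Hochberg adjustment and a threshold of 0.05. The spread between animals of a group, as an SD of log2 CPM, ran from 0.13 for COX6A1 to 0.87 for ATP5ME.

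Between breeds, 0 of the 35 genes passed with edgeR, where 0.226% of all tested genes passed, and 0 passed with DESeq2. At an unadjusted p under 0.05 there was 1 gene of 35, against 7.48% of all genes (3.57% higher and 3.91% lower in crossbred animals). No member separated the 10 crossbred from the 10 Iberian animals without overlap, which 0.0423% of all genes did upward and 0% downward. Fitted values were above 0 in 17 of the 35 (48.6%) and in 49.1% of all genes, and the medians were -0.005 and -0.004 on the log2 scale. By complex, 12 of 17 genes of complex I were above 0 (median 0.03), while 6 of 7 genes of complex V (median -0.14), 3 of 4 of complex IV (median -0.06) and 2 of 3 of complex III (median -0.14) were below 0. For 23 of the 35 genes the 95% interval of the breed difference lay within 1.5-fold either way, and for 32 within 2-fold. With the low-quality alignment share as a term in the fit, these counts were 9 and 23. Only Iberian males can inform that term, with replicates 2 and 3 at a high share and 1, 4 and 5 at a low one. Values with the term therefore also carry how replicate 5 differed. Without the term NDUFS3 had -0.005 (95% interval -0.16 to 0.15), NDUFS1 0.01 (-0.13 to 0.15) and COX6A1 -0.02 (-0.16 to 0.12). With that term the 3 values were 0.14, 0.16 and 0.09.

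**Figure D4:**
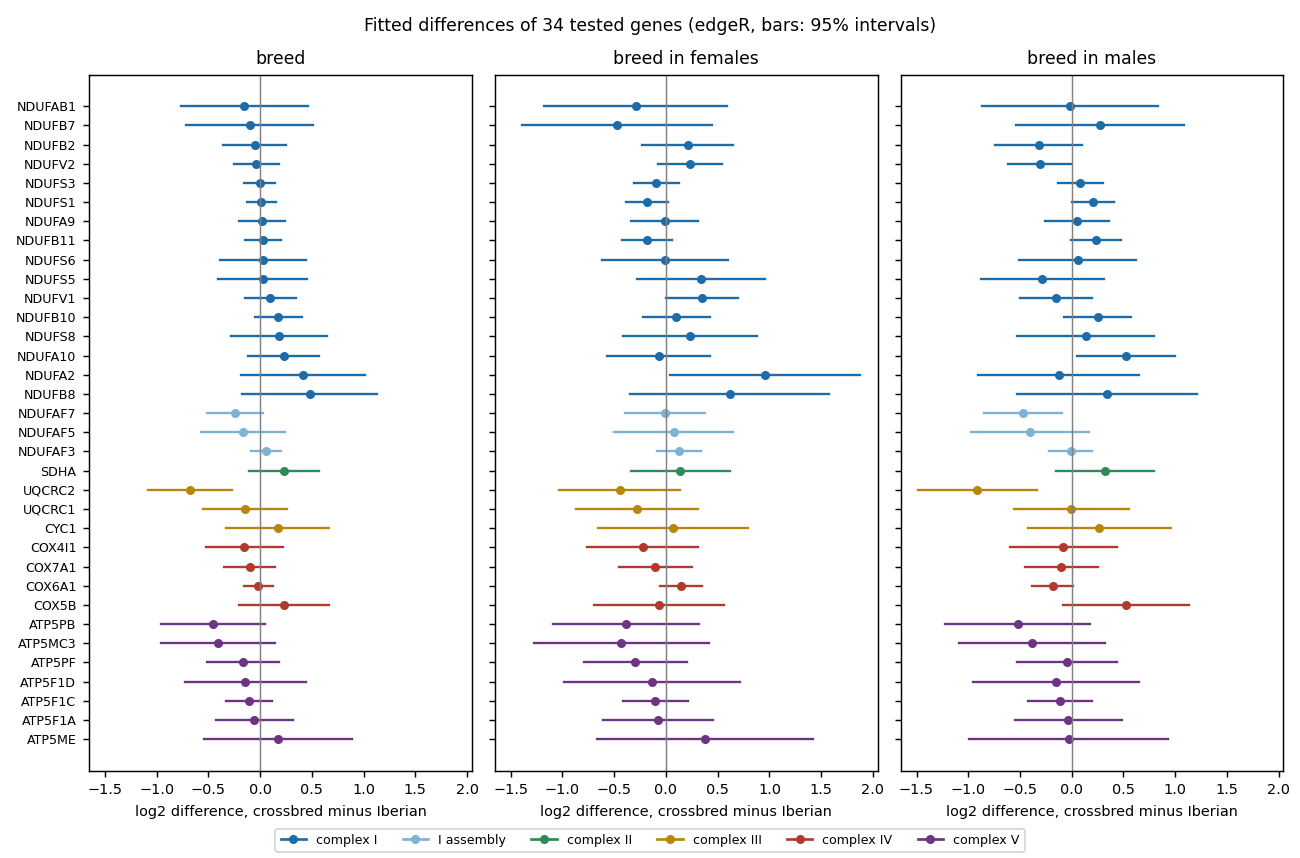
Fitted log2 differences (horizontal axis, crossbred minus Iberian) of 34 tested genes (vertical axis, coloured by complex) for both sexes together, in females and in males; bars are 95% intervals. UQCRC2 lies lowest for both sexes together (-0.68) and in males (-0.91), NDUFA2 lies highest in females (0.96), and no gene passed after adjustment.

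The gene with the smallest p between breeds was UQCRC2, a core protein that helps build and hold together complex III (ENSSSCG00000007845). In Iberian females it measured 17.1, 19.5, 13.5, 31.4 and 17.2 CPM in replicates 1 to 5, and in Iberian males 25.9, 17.1, 19.5, 26.6 and 31.0 CPM. In crossbred females it measured 25.4, 17.0, 13.1, 5.28 and 13.8 CPM, and in crossbred males 16.7, 15.4, 10.3, 10.2 and 10.7 CPM. All crossbred males lay below all Iberian males, by a narrow margin of 16.7 against 17.1 CPM, while the females overlapped. Such a separation downward in males was seen for 1.17% of all tested genes, and one upward for 0.705%.

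The breed difference of UQCRC2 was a log2 value of -0.68 (SE 0.20), and it did not pass (edgeR adjusted p = 0.242). Of the 10 crossbred animals 9 measured less than the median Iberian animal. In males it was -0.91 (SE 0.28, edgeR adjusted p = 0.225) and in females -0.45 (SE 0.29, edgeR adjusted p = 0.945). Neither passed, and the difference between the sexes, -0.47 (SE 0.40, edgeR adjusted p = 0.763), did not pass either. With no filter on low counts, where 19471 genes were tested, UQCRC2 passed between breeds (log2 -0.66, edgeR adjusted p = 0.0150) and in males (-0.88, edgeR adjusted p = 0.0381). Over all 26 alternatives the adjusted p between breeds ran from 0.0150 to 0.519 and the log2 difference from -1.08 to -0.55. Among libraries with few low-quality alignments only, 3 Iberian and 5 crossbred males, it was -1.12 (SE 0.31, edgeR adjusted p = 0.256). These Iberian males were replicates 1, 4 and 5, so replicate 5, the highest at 31.0 CPM, was among them. Of the partners of UQCRC2, UQCRC1 had -0.14 (SE 0.20) and CYC1 0.17 (SE 0.25), and neither passed. With the low-quality term the value in females was -1.04 for UQCRC2, and between breeds -0.27 for UQCRC1 and -0.44 for CYC1, whose sign changed.

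**Figure D5:**
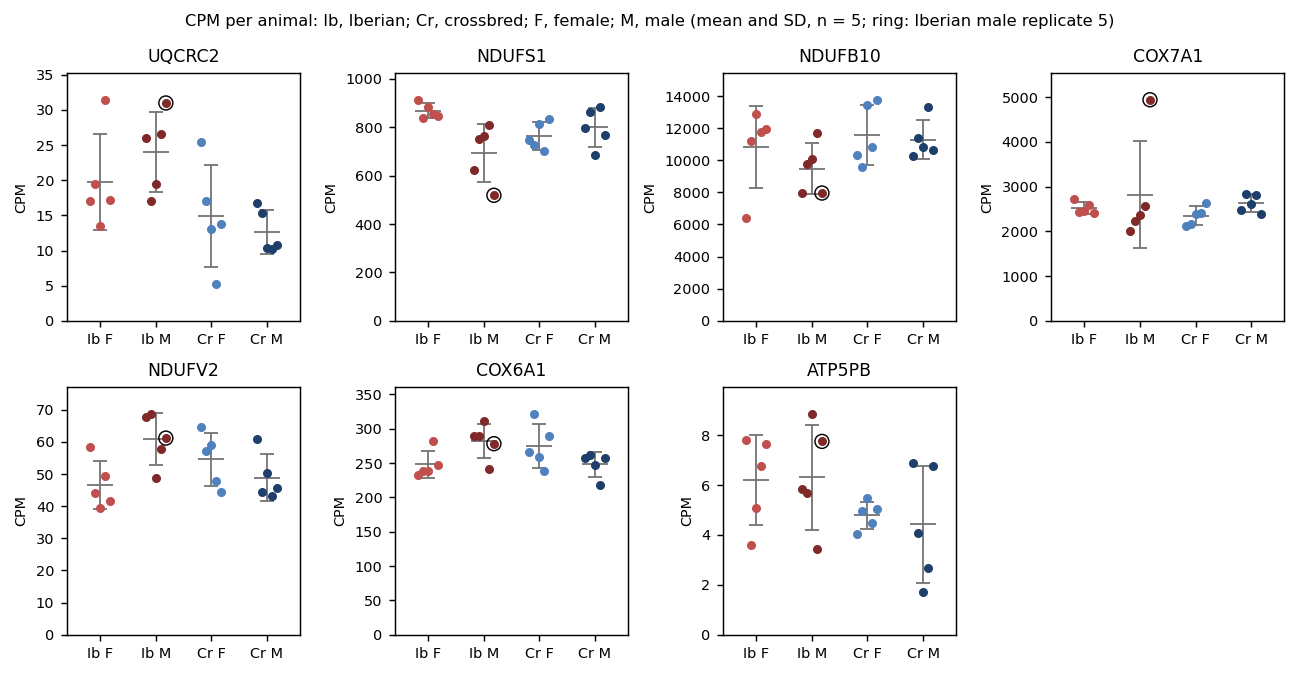
CPM per animal (vertical axes) of 7 genes by group (horizontal axes: Ib, Iberian; Cr, crossbred; F, female; M, male); bars are mean and SD of 5 animals and the ring marks Iberian male replicate 5. The mean of UQCRC2 is lowest in crossbred males (12.7 CPM, animals at 10.2 to 16.7), while its lowest animal is a crossbred female (5.28 CPM). The ringed animal is the lowest for NDUFS1 (519 CPM) and the highest for COX7A1 (4943 CPM).

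Other genes with small p between breeds lay on both sides. ATP5PB, a peripheral stalk subunit of the ATP synthase, measured 6.19 ± 1.81 CPM in Iberian females and 6.31 ± 2.09 in Iberian males, against 4.79 ± 0.544 and 4.43 ± 2.35 in crossbred females and males (log2 -0.46, SE 0.24, edgeR adjusted p = 0.686). ATP5MC3, which encodes the subunit of the rotating c-ring, had -0.41 (SE 0.27, edgeR adjusted p = 0.773), and -0.24 without Iberian male replicate 5. Higher in crossbred animals by the fitted value were NDUFB8 at 0.48 (SE 0.32), NDUFA2 at 0.42 (SE 0.29) and NDUFB10 at 0.17 (SE 0.11), with edgeR adjusted p of 0.760 to 0.781. NDUFA2 became 0.70 without Iberian male replicate 5 and -0.027, a change of sign, with the low-quality term. With that term ATP5PB had -0.13, NDUFB8 0.78 and SDHA 0.11. NDUFB10 ran from 6392 to 12875 CPM in Iberian females, from 7958 to 11695 in Iberian males, from 9602 to 13770 in crossbred females and from 10250 to 13319 in crossbred males. These ranges overlapped widely. SDHA, the main gene counted for complex II, measured 12.1 ± 3.03 and 11.14 ± 2.02 CPM in Iberian females and males and 13.6 ± 3.66 and 13.8 ± 3.17 in crossbred females and males, and it did not pass (log2 0.23, SE 0.16, edgeR adjusted p = 0.781).

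In females alone 0 of 35 genes passed between breeds with edgeR, as did 0% of all tested genes, and 0 passed with DESeq2. At an unadjusted p under 0.05 there was 1 of 35, NDUFA2, against 5.53% of all genes (3.64% higher, 1.89% lower). NDUFA2, an accessory subunit near the NADH-oxidising tip, was at 3.72 ± 1.91 CPM in Iberian and 7.24 ± 2.53 in crossbred females (log2 0.96, SE 0.45, edgeR adjusted p = 0.847), with overlapping groups. With the low-quality term its value was 0.31 (edgeR adjusted p = 0.938). NDUFV1, which binds NADH and FMN, was at 32.7 ± 6.90 and 41.1 ± 6.87 CPM (log2 0.35, SE 0.17, edgeR adjusted p = 0.899), and 0.56 with that term.

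NDUFS1 was the gene of the 35 whose female groups did not overlap, a separation downward shared by 0.55% of all tested genes, with 0.663% separated upward. It measured 914, 839, 884, 857 and 847 CPM in Iberian females and 750, 725, 814, 701 and 836 CPM in crossbred females. The groups were thus apart by 839 against 836 CPM, and the difference did not pass (log2 -0.18, SE 0.10, edgeR adjusted p = 0.921). All Iberian females had a high share of low-quality alignments and all crossbred females a low one, so that share and breed cannot be told apart in females. With the share as a term in the fit the NDUFS1 value was 0.03.

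In males alone 0 of 35 genes passed with edgeR, against 0.0282% of all genes, and 0 passed with DESeq2. At an unadjusted p under 0.05 there were 6 of 35 (17.1%), against 10.7% of all genes (3.62% higher, 7.11% lower). Among them, NDUFS1 and NDUFA10 had fitted values above 0, and UQCRC2, NDUFAF7 and NDUFV2 had values below 0. NDUFA10, a complex I accessory subunit, was named after its value was seen. All 7 tested genes of complex V had fitted values below 0 in males, from -0.52 to -0.03, and 11 of 17 of complex I were above 0. Iberian male replicate 5 had a complex V sum of 148 CPM, against 95.7 to 110 in the other Iberian males. Crossbred males had 89.5 to 111 CPM. The signs by complex were not counted without that animal. Over all 35 genes 14 (40%) were above 0, against 48% of all tested genes.

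NDUFAF7, the complex I assembly factor, was at 60.9 ± 18.4 CPM in Iberian and 43.4 ± 9.02 in crossbred males (log2 -0.47, SE 0.19, edgeR adjusted p = 0.339), with Iberian male replicate 5 highest at 89.9 CPM. Without that animal the value was -0.30. For both sexes together it was -0.24 (edgeR adjusted p = 0.691), and -0.60 with the low-quality term (edgeR adjusted p = 0.292). In females it was at 48.0 ± 7.07 and 48.2 ± 9.99 CPM. NDUFAF7 overlaps PRKD3 by 10161 bp and lies 8 bp from CEBPZ, which had 118 to 265 and 594 to 1198 counts per library.

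Sums of markers of other cell types are given by group and were not tested, and several lists were looked at in each sex. Of single tested genes, 0.705% lay higher without overlap in crossbred than Iberian males, and 0.663% in crossbred than Iberian females. The oligodendrocyte markers MBP, MOG and CNP, 3 of 4 considered, had a row and summed to 1118 to 1321 CPM in Iberian males and 1384 to 1774 CPM in crossbred males, without overlap. In Iberian and crossbred females they summed to 1226 to 1526 and 1308 to 1882 CPM. None of the 3 was at 0 in any library. The 5 anterior pituitary markers with a row summed to 1.70 to 286 CPM in Iberian males, 0.909 to 2.62 in Iberian females, 2.31 to 3.75 in crossbred females and 0 to 0.975 in crossbred males. Of the 5 microglia markers CSF1R had 11569 counts over all libraries. C1QA had 845, AIF1 89, CX3CR1 70 and P2RY12 48, so the sum of the 5 is mostly CSF1R. These markers summed to 300 to 325 CPM in Iberian and 334 to 382 in crossbred females, without overlap. In Iberian and crossbred males they summed to 206 to 357 and 301 to 354 CPM. Iberian male replicate 5 was the lowest for microglia, and at 80.3 CPM for tanycyte and ependyma against 14.6 to 32.0 in the others. The remaining lists overlapped between breeds in each sex. The part of any of these in the gene differences was not tested beyond leaving out Iberian male replicate 5.

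For sex, edgeR called 0 of the 35 genes, against 0.0705% of all genes, and 0 passed with DESeq2. At an unadjusted p under 0.05 there was 1 of 35, ATP5MC3, against 3.6% of all genes (2.45% higher and 1.14% lower in males). No member separated the sexes, which 0.0423% of all genes did upward and 0.0141% downward. Fitted values were above 0, thus higher in males, in 25 of 35 (71.4%) and in 52.5% of all genes, with medians of 0.07 and 0.01. Without Iberian male replicate 5 the median of the 35 was 0.01, and with the low-quality term 19 of the 35 were above 0. ATP5MC3 was at 5.67 ± 1.95 and 4.24 ± 1.57 CPM in Iberian and crossbred females and at 9.40 ± 5.63 and 6.96 ± 2.70 in Iberian and crossbred males (log2 0.69, SE 0.27, edgeR adjusted p = 0.9999), and the value was 0.52 without Iberian male replicate 5. NDUFA2 had 0.52 (SE 0.29) and 0.24 without that animal, and NDUFS1 had -0.13 (SE 0.07) and -0.09. The X-linked NDUFB11, at 41770929 to 41773879 of chromosome X, had 0.00 (SE 0.08, 95% interval -0.17 to 0.17) as the mean over both breeds. A sex difference of 1.5-fold in that mean lay outside its interval. Its group means, given below, were higher in Iberian females than males and lower in crossbred females than males. The interval thus does not bound the sex difference within a breed.

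The breed difference itself was then compared between the sexes. With edgeR 0 of 35 genes passed this interaction, against 0.0141% of all genes, and 0 passed with DESeq2. At an unadjusted p under 0.05 there were 6 of 35 (17.1%), against 8.36% of all genes (2.88% above and 5.49% below 0), and 5 of the 6 were complex I subunits. NDUFS1 had the smallest p (log2 0.39, SE 0.14, edgeR adjusted p = 0.567). Its means were 868 ± 30.7 and 765 ± 57.7 CPM in Iberian and crossbred females and 693 ± 119 and 799.7 ± 79.8 CPM in Iberian and crossbred males. NDUFV2 had the opposite direction (-0.54, SE 0.21, edgeR adjusted p = 0.567), at 46.6 ± 7.52 and 54.7 ± 8.25 CPM in Iberian and crossbred females and 60.9 ± 8.17 and 48.9 ± 7.23 CPM in Iberian and crossbred males. Without Iberian male replicate 5 these values were 0.31 and -0.54. NDUFB11, NDUFV1 and COX6A1 were also among the 6. With the low-quality term NDUFS1 had 0.26, NDUFV2 -0.49 and NDUFB11 0.34, at unadjusted edgeR p of 0.057 to 0.11. NDUFV1 at -0.62 and COX6A1 at -0.42 stayed under an unadjusted p of 0.05 with that term. NDUFB11 was at 139 ± 11.8, 120 ± 15.4, 122 ± 19.4 and 141 ± 12.4 CPM in Iberian females, Iberian males, crossbred females and crossbred males, and COX6A1 at 248 ± 19.7, 282 ± 25.4, 275 ± 32.0 and 248 ± 18 CPM in the same order.

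COX7A1 showed how far 1 library could reach. It measured 2013, 2234, 2363, 2557 and 4943 CPM in Iberian males, 2724, 2429, 2457, 2581 and 2408 CPM in Iberian females, 2122, 2158, 2393, 2412 and 2641 CPM in crossbred females and 2474, 2843, 2616, 2811 and 2390 CPM in crossbred males. Apart from Iberian male replicate 5 all libraries lay between 2013 and 2843 CPM. The breed difference was -0.10 (SE 0.12, 95% interval -0.35 to 0.15) and did not pass. With the low-quality term it was -0.42 (95% interval -0.81 to -0.02, edgeR adjusted p = 0.414), a value outside the first interval. Only Iberian males inform that term, and replicate 5 is among those with a low share, so term and animal were not separated. Over the 35 tested genes, Iberian male replicate 5 was the highest of all 20 libraries for 9 and the lowest for 3. The same count was not made over all tested genes, on which this library also stood apart, so it is not particular to these genes.

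Genes that build, feed or regulate the chain gave the same number of calls. In all 5 comparisons 0 tested genes of these lists passed with edgeR. For assembly factors outside the member set 13 of 52 listed genes were tested, with a median breed difference of 0.02. The smallest p belonged to ACAD9, a complex I assembly factor (log2 0.52, SE 0.14, edgeR adjusted p = 0.144). Of the electron carriers and ubiquinone synthesis genes 9 of 19 were tested (median -0.06), of the tricarboxylic acid cycle genes 15 of 25 (median 0.03), and of the carriers and import channels 10 of 19 (median -0.15). Of the biogenesis regulators 12 of 24 were tested (median -0.02). The best known of these, PPARGC1A, NRF1 and TFAM, had at most 7, 5 and 5 counts per library, and cytochrome c itself (CYCS) at most 6, all below the filter. The median over all tested genes was -0.004. The 13 mitochondrially encoded messengers had a median of -0.28 with 13 of 13 below 0 and 11 at an unadjusted p under 0.05, where 7.48% of all genes reached that p. The tested nuclear-encoded genes, with a median of -0.005 and 1 of 35 at that p, are given beside them, and the difference between the lists was not tested. In females 1 of the 13 mitochondrially encoded messengers reached that p (median -0.16), against 5.53% of all genes. In males 10 of the 13 did (median -0.35), against 10.7% of all genes. The 13 messengers were measured in the same animals and may vary together, so these counts are not independent results. This list was not examined with the low-quality term or without Iberian male replicate 5.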

How the data were processed

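The authors deposited raw counts per gene, 1 column per animal, with 5 summary lines that entered neither library sizes nor tests; entries matching no feature took 80.2 to 88.1%. HISAT2 and HTSeq, besides FastQC, Trim Galore, DESeq2 and the build Sscrofa11.1, are named per the submitters' processing notes; versions, strand setting and annotation release are not given in the sources used here. Per the labels' protocols the RNA integrity numbers were 7.8 to 9.8. Members were found by symbol in a table of gene names, and positions came from RefSeq by unique symbol.

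Counts were fitted with edgeR 4.0.16 in R 4.3.3: TMM scaling, filter by expected counts (10 in as many libraries as a group holds, total 15), 1 mean for each of 4 groups, robust quasi-likelihood, and Benjamini-Hochberg adjustment over 7090 genes. CPM use TMM-scaled totals of the tested genes; marker sums use unscaled totals of all genes. Standard errors and 95% intervals are Wald values from the fit, and the SD of log2 CPM uses a pseudocount of 0.5. Within a group, 40 pairs of libraries gave a chi-square per degree of freedom of 2.45 to 73.8 and no pair was counted as 1 sample.

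Alternatives were RLE size factors, DESeq2 1.42.0, no filter, at least 1 CPM in 5 libraries, a replicate block, a low-quality alignment term (libraries split at 4.5%), and each library left out. Libraries with a low share only, and sums without NDUFB10 and COX7A1, were added after seeing the data. The test was tried on simulated counts. Members and lists were chosen with earlier results of these data known. Genes are named by rule: called members, those with the smallest p (8 for breed, 3 in each other comparison), the best counted of each complex, complex II, paired isoforms, X-linked members, 4 other genes (PPARGC1A, NRF1, TFAM, CYCS) and 2 on each side of the filter. Other genes, the neighbours among them, were named after their values were seen. Some named items are not reported here; counts over all members and fits over all genes include them.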

Additional observations from a re-analysis of the deposited data

Results flagged for a closer look

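Of 96 sets of 5 animals checked (17 tested genes and 7 sums by complex in 4 groups), 9 held an animal far from the rest of its group, and chance gives about 1 in 20. In Iberian male replicate 5, COX7A1 was at 4943 CPM against 2013 to 2557 in the other Iberian males and NDUFA2 at 20.9 against 3.99 to 7.96. In the same animal the sum of complex IV was 5281 CPM against 2338 to 2845, which is largely COX7A1, and that of complex V 148 against 95.7 to 110. Iberian female replicate 1 had NDUFB10 at 6392 CPM against 11178 to 12875, and with it a complex I sum of 8417 against 13080.5 to 14852. Crossbred female replicate 5 had NDUFB11 at 87.8 CPM against 125 to 135 and a complex II sum of 25.1 against 19.1 to 20.2. Iberian female replicate 4 had a complex IV sum without COX7A1 of 317.9 CPM against 276 to 288.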

How the results depend on the processing

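The count of 0 respiratory chain genes passing was the same in all 5 comparisons under RLE size factors, DESeq2, the 1 CPM filter, the term for low-quality alignments, and each library left out (0 to 0). With no filter, 1 gene passed for breed and 2 in males. With the replicate block 0 members passed in each comparison, and 15 genes in all for breed against 16. The numbers were not taken to pair the animals. Over 30 same-numbered pairs the correlation of deviations ran from -0.08 to 0.19, with 5 above 0.1, and 7 of 20 libraries correlated best with their own number. The number expected by chance was not worked out, so this check does not settle pairing. Of 521 refitted values of named genes 516 kept direction and side of the threshold and 3 newly passed. The other 2 changed sign with the low-quality term, NDUFA2 for breed to -0.027 and NDUFS1 in females to 0.033; the cause was not tested. Sums by complex moved when their leading gene was left out, to 1783 CPM for complex I and 305 CPM for complex IV, by construction. Over all genes, calls for breed were 27 with DESeq2, 78 with no filter, 0 with the low-quality term and 2 (without crossbred female replicate 4) to 23 (without Iberian male replicate 5) with 1 library left out; in males (2 calls) 17, 48, 0 and 0 to 7, 1 with the 1 CPM filter and 0 among low-share libraries. In females (0 calls) they were 17 with no filter and up to 8 without Iberian male replicate 5. For sex (5 calls) they were 12 with no filter and 9 with the 1 CPM filter. For the interaction (1 call) they were 2 with DESeq2, 7 with no filter 0 with the block or the low-quality term and 0 to 1 with 1 library left out. The members' median in males was 0.07 without Iberian male replicate 5, against -0.03. Depth left 37 members untested, the best counted with a mean of 7.55 counts per library.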
